A study of Mus musculus with 28 samples.

Results

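The genes of splicing factors and hnRNP proteins were followed through steady-state transcription and through recovery from a block of elongation in mouse embryonic stem cells (mESCs). Members were all genes whose symbol begins with Srsf, Hnrnp, Snrp, Sf3a, Sf3b or Prpf, which gave 66 of the 24984 rows in each of 3 tables of nascent RNA. They comprise 11 SR proteins, 21 hnRNP proteins, 12 snRNP proteins, 3 SF3a subunits, 6 SF3b subunits and 13 PRPF proteins.

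Bru-seq, the assay used, feeds bromouridine (BrU) to living cells, so that RNA made within minutes carries the label, is captured with an antibody and is sequenced as nascent RNA. WT and EloA null CCE28 mESCs, which carry or lack Elongin A, a transcription factor of RNA polymerase II, were maintained with LIF and the 2i inhibitors, freed of feeder fibroblasts and labelled on gelatin with 2 mM BrU. Steady-state samples were labelled for 10 min, while recovery samples were first held in 1 µM flavopiridol, an inhibitor of the kinase that releases paused polymerase, for 60 min, washed, and then labelled for 5 min or 10 min. Each genotype has 2 libraries per condition, 12 in all, which the study describes as independent experiments, and the p-values measure the spread between these libraries. The protocol text names CJ7 cells in 1 place and CCE28 cells elsewhere.

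Precursor mRNA is spliced by the spliceosome, whose small nuclear ribonucleoproteins (snRNPs) recognise the ends of introns and the branch point and then catalyse the cut and the joining of exons. SR proteins bind mostly exons and recruit the spliceosome, while hnRNP proteins coat the nascent transcript and often compete with them at splice sites. Many of these genes are transcribed in nearly every dividing cell.

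The steps between low values gave the library sizes, the smallest being 9857525 reads for a WT library at 5 min and the largest 28547354 reads for a library labelled EloA null at 10 min. Summed RPKM of 10 ES cell markers lay between 156 and 287 in the 12 libraries, against 1.73 to 4.53 for 12 feeder fibroblast markers, of which at most 3 passed an RPKM of 0.5 in a library. Eloa, the targeted gene, had RPKM of 1.96 and 1.89 in steady-state libraries labelled EloA null against 1.18 and 1.16 in WT. Nascent RNA does not show whether the protein is lost. The study examined Elongin A protein in both genotypes by immunoblot. In a binding assay (CUT&RUN-seq) it reports Elongin A signal close to background at the Rn45s gene in EloA null cells. Every direction below is given by label. Replicate 1 of the steady-state libraries labelled EloA null bears that genotype in its title but "wild type" in its genotype field. It was grouped by title, and the steady-state values of single genes and families include it. The median genotype difference of the members, their counts past 1.5-fold and a 10-min recovery median are also given without it. Its Eloa RPKM of 1.96 lay above that of both WT libraries.

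RPKM here means reads per kilobase of counted length, scaled to library size. The study states that reads in whole genes were counted, which differs from the length found here. In WT steady-state replicate 1, 96.3% of 9786 genes with introns gave whole reads over the intron length and 4.20% over the gene span. For 59 of the 63 expressed members the values were whole reads over the intron length, with 1 further exon base at either end of an intron, or over the exon for Hnrnpa0 and Sf3b5, which have no intron. The exceptions included Prpf40b, Prpf4b and Srsf11. Among those 59 members the median was between 965 and 4266 reads per library, and the lowest count was 21 reads, for Sf3b5. A level thus describes mainly intronic, unspliced RNA.

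A gene was called expressed when its mean RPKM exceeded 0.5 in either genotype, and 63 of the 66 members passed this limit in steady state, 62 at 5 min and 63 at 10 min. Srsf12, Snrpn and the pseudogene Hnrnpa1l2-ps2 stayed below it in all conditions, and Prpf40b did so at 5 min. Hnrnpa1l2-ps2 was listed at 0 in all 12 libraries. The use of strand in the counting is not given in the sources used here, and 14 expressed members share part of their span with a gene of at least 300 bases on the other strand. This overlap covers more than 10% of the span for 7 of them, among them Hnrnpab, which overlaps Phykpl over 46.7% of its span, and Srsf2, which overlaps Mfsd11 over 38.8%.

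Promoters are shown for the members with the highest and lowest recovery at 5 min, for which the results below diverge most, and for Hnrnpc, which had the highest log2 fold change between genotypes in steady state and at 5 min. Each covers 250 bases before and 50 after a RefSeq start in GRCm38.p6, the assembly behind mm10, and the table held 58 of the 66 members and 55 of the 63 expressed ones. Members without an entry included Hnrnpll, Hnrnpul2, Prpf18, Sf3b4, Sf3b5, Snrpb and Snrpd1. Prpf38b (chr3:108911680-108911979, minus strand) and Snrpd2 (chr7:19149588-19149887, plus strand) had the highest ratios of 5-min recovery to steady state among members with an entry, and Sf3b3 (chr8:110846754-110847053, minus strand) and Prpf40b (chr15:99294991-99295290, plus strand) the lowest. Hnrnpc lies at chr14:52103972-52104271 on the minus strand. Capitals mark matches, on either strand, to the 5 motifs spelled out after the sequences.
Prpf38b: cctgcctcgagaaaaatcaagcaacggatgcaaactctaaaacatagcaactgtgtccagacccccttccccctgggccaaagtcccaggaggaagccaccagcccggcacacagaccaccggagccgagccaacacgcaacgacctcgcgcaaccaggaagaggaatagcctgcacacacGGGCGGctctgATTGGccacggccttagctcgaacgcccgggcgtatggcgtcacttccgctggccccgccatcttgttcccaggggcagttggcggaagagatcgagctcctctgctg
Snrpd2: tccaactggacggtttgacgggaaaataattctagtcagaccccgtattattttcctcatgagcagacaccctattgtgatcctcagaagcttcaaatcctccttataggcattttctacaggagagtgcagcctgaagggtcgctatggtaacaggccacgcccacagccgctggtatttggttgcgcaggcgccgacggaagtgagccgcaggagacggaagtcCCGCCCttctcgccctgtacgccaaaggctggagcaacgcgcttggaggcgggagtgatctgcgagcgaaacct
Sf3b3: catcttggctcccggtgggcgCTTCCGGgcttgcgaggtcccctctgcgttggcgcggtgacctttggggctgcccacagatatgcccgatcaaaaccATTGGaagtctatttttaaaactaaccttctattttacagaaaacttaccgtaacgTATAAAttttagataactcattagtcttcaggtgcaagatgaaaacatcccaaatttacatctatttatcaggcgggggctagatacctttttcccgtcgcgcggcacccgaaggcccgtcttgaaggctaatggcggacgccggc
Prpf40b: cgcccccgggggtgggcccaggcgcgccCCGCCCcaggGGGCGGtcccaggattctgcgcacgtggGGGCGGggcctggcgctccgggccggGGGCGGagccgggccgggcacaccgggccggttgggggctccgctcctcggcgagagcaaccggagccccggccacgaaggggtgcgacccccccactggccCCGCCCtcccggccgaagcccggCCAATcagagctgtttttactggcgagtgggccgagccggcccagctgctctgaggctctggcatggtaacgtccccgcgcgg
Hnrnpc: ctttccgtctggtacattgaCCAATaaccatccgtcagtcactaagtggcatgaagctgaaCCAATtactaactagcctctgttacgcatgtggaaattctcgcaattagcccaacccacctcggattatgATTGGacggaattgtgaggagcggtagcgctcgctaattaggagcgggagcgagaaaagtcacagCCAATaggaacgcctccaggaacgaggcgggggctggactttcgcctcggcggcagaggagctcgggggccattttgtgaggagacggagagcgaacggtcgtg

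The printed promoters differ in composition, with a GC content of 61.7% for Prpf38b, 55.3% for Snrpd2, 50% for Sf3b3, 78.3% for Prpf40b and 54.3% for Hnrnpc. Hnrnpc holds 4 CCAAT boxes, whose first printed letters lie at positions -230, -189, -119 and -54 from the start. Prpf40b holds 5 SP1 sites and a CCAAT box at -33. Sf3b3 holds a TATA box at -96, a CCAAT box at -152 and an ETS site at -229.

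The ETS site, searched as CCGGAAG, was found in 19 of 55 member promoters (34.5%), against 20.9% of the promoters of all expressed genes and 9.14% of all 27025 promoters in the table. CCAAT boxes, searched by those letters, were found in 27 member promoters (49.1%, against 39.8% of expressed genes and 38% of all promoters). The SP1 site, searched as GGGCGG, was found in 37 (67.3%, against 65.2% and 35.9%). The TATA box, searched as TATAAA, was present in 6 (10.9%, against 6.55% and 14.2%), and the CRE, searched as TGACGTCA, in 2 (3.64%, against 3.62% and 1.85%). These are letter matches on both strands, listed as a description, and the 5 motifs do not contain one another.

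In steady-state WT cells the members had a median RPKM of 6.57, against 1.80 for all 11345 expressed genes. By family, the median RPKM was 12.3 for SR proteins, 10.5 for hnRNP proteins, 6.57 for snRNP proteins, 4.51 for SF3a subunits, 3.90 for SF3b subunits and 4.13 for PRPF proteins. The members were chosen by name, so these medians describe the list and were not tested.

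**Figure D1:**
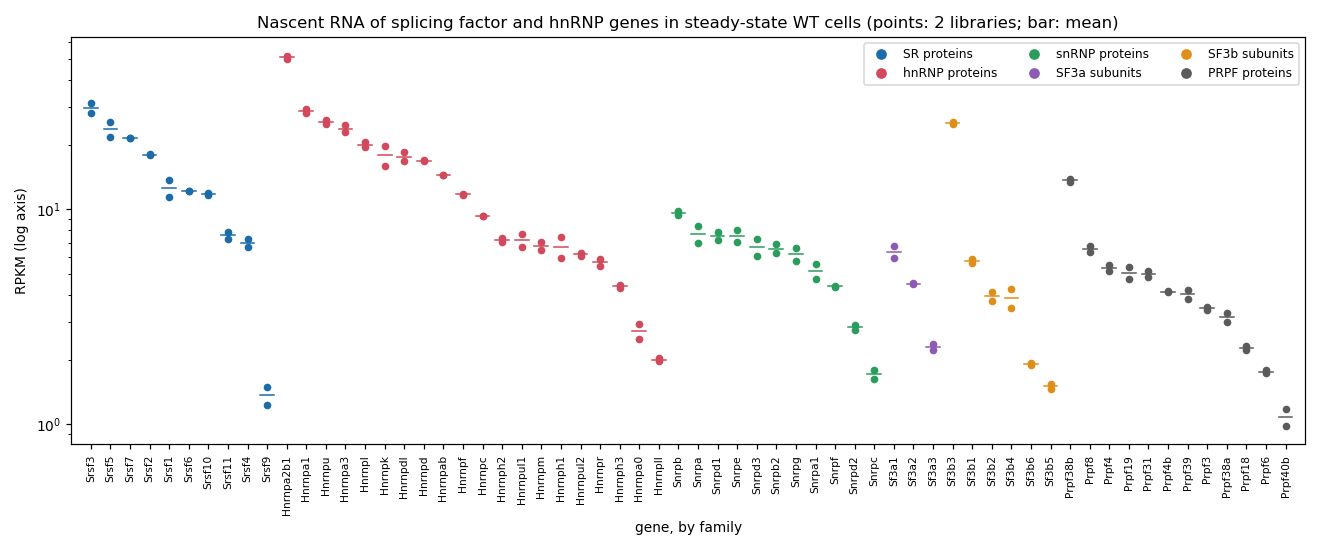
RPKM (log axis) of 62 of the 63 expressed members in the 2 steady-state WT libraries, with genes on the horizontal axis ordered by family and mean. Points are libraries and bars are means; Hnrnpa2b1 is the highest gene at a mean of 50.9, and Sf3b3 at 25.2 stands far above the other SF3b genes, which lie between 1.502 and 5.75.

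Hnrnpa2b1, which encodes a core hnRNP protein, had the highest steady-state level of all members, with RPKM of 50.1 and 51.8 in WT. Srsf3, the smallest SR protein, led its family at 31.3 and 27.9. Sf3b3, the large beta-propeller subunit of SF3b, was listed at 25.5 and 24.8. Prpf38b led the PRPF genes at 13.4 and 13.8, Snrpb, a component of the Sm ring, led the snRNP proteins at 9.80 and 9.45, and Sf3a1 led its complex at 6.76 and 5.93. The leading genes of the families thus ranged from a mean of 6.34 RPKM for Sf3a1 to 50.9 for Hnrnpa2b1.

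Genes whose products work in equal numbers in 1 particle did not have equal RPKM, which here is mainly a density of intronic RNA. Among the genes of the Sm ring, mean WT levels ran from 2.82 RPKM for Snrpd2 to 9.62 for Snrpb, with 7.53 for Snrpd1, 6.68 for Snrpd3, 7.49 for Snrpe, 4.38 for Snrpf and 6.18 for Snrpg. In SF3b they ran from 1.502 for Sf3b5 to 25.2 for Sf3b3. Sf3b5 has no intron and was counted over its exon, from 27 and 30 reads in WT. Sf3b1, the subunit that holds the branch point and is often mutated in blood cancers, was at 5.75.

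Snrpn, an imprinted gene that encodes a Sm protein used mainly in neurons, fell under the limit. RefSeq gives it a span of 467.7 kb, and the part of this span in its low RPKM was not tested. Its RPKM was 0.104 and 0.122 in steady-state WT cells and 0.156 and 0.138 under the EloA null label, yet these values stand for 1151, 1588, 1675 and 1794 reads. At 5 min its RPKM was 0.058 and 0.059 in WT and 0.096 and 0.093 in the other genotype, and at 10 min 0.082 and 0.081 against 0.091 and 0.093. The libraries labelled EloA null were higher in each condition without overlap. With every mean under the limit, Snrpn was left out of the main tests. The alternative limma fit without that limit gave no member an adjusted p under 0.05.

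The comparison of genotypes asks whether these genes differ between the libraries labelled EloA null and WT. An effect of the loss of Elongin A cannot be told apart here from other differences between the WT and EloA null cells. In steady state no member was past 1.5-fold in either direction, while 7.21% of the 11345 expressed genes were past it as higher in the libraries labelled EloA null and 2.1% as lower. By limma, 0 members and 0 genes (0%) passed an adjusted p of 0.05, and 4 members had an unadjusted p under 0.05, all of them higher, against 18.4% of all genes. Both libraries labelled EloA null lay above both WT libraries for 9 members (background 32%) and below them for 14 (background 21.4%). Log2 fold changes are differences on the log2(RPKM + 0.1) scale, given below ± their standard error. Their median was -0.05 for the members and 0.03 for all genes.

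At 5 min of recovery 1 member was past 1.5-fold as higher (5.4% of 8984 genes) and 1 as lower (6.72%). Again 0 members and 0 genes (0%) passed the adjusted p, and 1 member, Prpf18, had an unadjusted p under 0.05 (background 9.42%). The groups did not overlap for 3 members that were higher (background 15.4%) and 13 that were lower (background 25%), and the median log2 fold change was -0.05, against -0.06 for all genes. At 10 min no member was past 1.5-fold (background 9.41% higher and 3.01% lower). The adjusted p was passed by 0 members and 0 genes (0%), and 6 members had an unadjusted p under 0.05, 5 of them higher, against 20.5% of 10239 genes. Without overlap, 13 members were higher (background 33.5%) and 10 lower (background 21.8%), with a median log2 fold change of -0.03 against 0.06 for all genes. With 2 libraries per genotype, an exact permutation test on a single gene reaches a two-sided p of 0.333 at best.

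**Figure D2:**
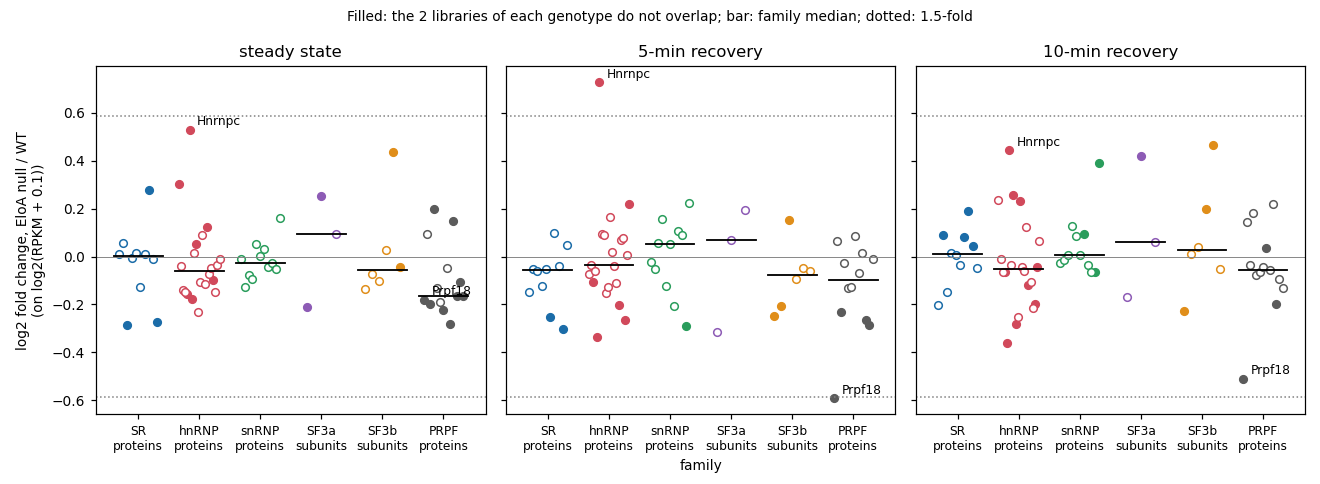
Log2 fold change between the libraries labelled EloA null and WT (vertical axis, on log2(RPKM + 0.1)) for each expressed member, by family (horizontal axis), in the 3 conditions. Filled points have no overlap between the 2 libraries of each genotype, bars are family medians and dotted lines mark 1.5-fold. Hnrnpc at 5 min (0.73) is the only member above the upper line, and Prpf18 is the lowest member at 5 min (-0.59) and at 10 min (-0.51).

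The SR protein genes differed little between genotypes. Their median log2 fold change was 0.00 in steady state, -0.06 at 5 min and 0.01 at 10 min, and ratios lay between 0.810 and 1.21. Srsf3 was at 31.3 and 27.9 RPKM in WT and at 33.0 and 26.9 in those labelled EloA null, a ratio of 1.01. Srsf1, an SR protein that also has roles in export and translation, was at 11.4 and 13.7 against 11.99 and 13.1, and Srsf2 at 17.8 and 18.0 against 18.7 and 17.1. In all 3 the genotypes overlapped.

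Srsf6 was the SR gene that was highest in the libraries labelled EloA null in steady state. Its RPKM was 14.4 and 15.1 there and 12.1 and 12.2 in WT, without overlap, with a log2 fold change of 0.28 ± 0.09 (limma adjusted p = 0.231). At 10 min it was at 25.2 and 21.9 against 20.7 and 20.5, again without overlap, with a log2 fold change of 0.19 ± 0.10. Srsf11 was lowest in steady state at 6.79 and 5.64 against 7.30 and 7.83 in WT, a log2 fold change of -0.28 ± 0.13 (limma adjusted p = 0.327), and Srsf9, at 1.10 and 1.11 against 1.23 and 1.49, had the lowest ratio of means, 0.810. At 5 min Srsf5 was highest, at 28.8 and 38.5 against 28.1 and 34.5, and Srsf7 lowest, at 17.0 and 19.3 against 22.0 and 22.7. Of this pair only Srsf7 was without overlap, and in steady state its genotypes overlapped at 24.4 and 18.5 against 21.5 and 21.3. At 10 min Srsf1 had the lowest log2 fold change, -0.20 ± 0.20, from 15.0 and 18.8 against 16.5 and 22.6 RPKM.

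Among the hnRNP genes the abundant members overlapped between genotypes in steady state. Hnrnpa2b1 was at 52.1 and 40.9 RPKM under the EloA null label, against 50.1 and 51.8. Hnrnpa1, which represses splice sites, was at 29.1 and 26.7 against 29.1 and 28.1, Hnrnpk, which binds C-rich RNA, at 18.1 and 14.8 against 15.9 and 19.7, and Hnrnpu, a scaffold of chromatin and RNA, at 26.6 and 19.7 against 24.9 and 25.9. For Hnrnpa2b1, Hnrnpk and Hnrnpu, replicate 2 of the libraries labelled EloA null was below every other library. Hnrnph1 had the lowest log2 fold change of the family, -0.23 ± 0.16, from 6.17 and 5.16 against 5.94 and 7.44 RPKM.

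Hnrnpc, whose protein binds uridine tracts and sorts transcripts by length, was the only expressed member higher in the libraries labelled EloA null in all 3 conditions without overlap. In steady state its RPKM was 9.34 and 9.33 in WT and 14.5 and 12.6 in the other genotype. At 5 min the values were 8.15 and 11.4 against 12.4 and 20.8, and at 10 min 16.5 and 21.6 against 24.4 and 27.1. WT was below the other genotype each time, from at least 2241 reads per library. The ratios of means were 1.45, 1.70 and 1.35, and the log2 fold changes 0.53 ± 0.11, 0.73 ± 0.32 and 0.44 ± 0.16 (limma adjusted p = 0.142, 0.569 and 0.232). Of the 8216 genes expressed in all 3 conditions, 8.79% were higher without overlap in each, and 10.1% were lower.

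Hnrnpc is also the only member on chromosome 14 (52073377 to 52104039, minus strand). The median log2 fold change of all expressed genes on chromosome 14 was 0.50 in steady state (416 genes), 0.46 at 5 min (348 genes) and 0.51 at 10 min (385 genes), while the genes on all other chromosomes were at 0.02, -0.07 and 0.05. Hnrnpc stood at percentile 55.0, 82.8 and 41.3 of the genes on its chromosome. Of the genes within 1 Mb of it, 14 of 14, 9 of 10 and 13 of 13 had a log2 fold change above 0. The part of this chromosome-wide difference in the value of Hnrnpc was not tested.

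Hnrnpab was lower in the libraries labelled EloA null in all 3 conditions without overlap. Its RPKM was 12.9 and 13.1 against 14.5 and 14.4 in steady state, 8.05 and 9.76 against 12.02 and 10.4 at 5 min, and 18.5 and 18.9 against 21.4 and 27.0 at 10 min. Phykpl, on the other strand over 46.7% of the Hnrnpab span, was at 14.1 RPKM in steady-state WT. Its part in the Hnrnpab values was not tested. Hnrnpab was the hnRNP gene with the lowest ratio of means in both recovery conditions, 0.793 and 0.773. The log2 fold changes were -0.33 ± 0.20 and -0.36 ± 0.14 (limma adjusted p = 0.681 and 0.246). Hnrnpf, a binder of G-rich tracts, was higher without overlap in steady state, at 12.2 and 12.1 against 11.7 and 11.7, and lower without overlap at 10 min, at 23.3 and 25.7 against 25.9 and 34.0. The difference of its 2 log2 fold changes was -0.33 ± 0.33, with an adjusted p of 1.00 in the limma fit of 12 libraries.

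The genotypes overlapped in steady state in 11 of 11 expressed snRNP protein genes, against 32% of all genes higher and 21.4% lower without overlap. Snrpb was at 9.92 and 8.36 RPKM under the EloA null label against 9.80 and 9.45 in WT, and Snrpd1 at 8.24 and 6.89 against 7.83 and 7.23. Snrpg, the Sm ring member with the highest log2 fold change in each condition, was at 7.33 and 6.52 against 6.60 and 5.77 in steady state and at 14.4 and 19.5 against 14.1 and 14.7 at 5 min, both with overlap. At 10 min it was at 22.7 and 22.1 against 15.9 and 18.2, without overlap, with a log2 fold change of 0.39 ± 0.10 (limma adjusted p = 0.174). Snrpa1, a U2 snRNP protein, had the lowest steady-state value, at 4.95 and 4.48 against 5.59 and 4.76. Snrpf was lowest in recovery, at 4.09 and 5.01 against 5.54 and 5.57 at 5 min and at 8.43 and 8.93 against 9.02 and 9.15 at 10 min, both without overlap.

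Of the SF3a subunits, which join SF3b on the U2 snRNP, Sf3a2 was higher and Sf3a1 lower in the libraries labelled EloA null in steady state, both without overlap. Sf3a2 was at 5.29 and 5.50 RPKM against 4.47 and 4.55 in WT, a log2 fold change of 0.25 ± 0.08 (limma adjusted p = 0.226). Sf3a1 was at 5.56 and 5.36 against 6.76 and 5.93, a log2 fold change of -0.21 ± 0.10 (limma adjusted p = 0.364). At 10 min Sf3a2 was at 8.03 and 6.85 against 5.72 and 5.32, without overlap, a log2 fold change of 0.42 ± 0.12 (limma adjusted p = 0.190). Sf3a1 overlapped between genotypes in recovery, at 1.48 and 1.82 against 2.42 and 1.77 at 5 min and at 7.47 and 6.82 against 8.90 and 7.24 at 10 min. Sf3a3 had the highest log2 fold change of the complex at 5 min, 0.19 ± 0.17, from 1.34 and 1.69 against 1.36 and 1.25 RPKM, with overlap.

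Of the SF3b subunits, Sf3b5 was higher in the libraries labelled EloA null in steady state, at 1.83 and 2.34 RPKM against 1.54 and 1.46, and at 10 min, at 2.18 and 3.15 against 1.66 and 2.10. Both times the genotypes did not overlap, but the values rest on 27 to 48 reads in steady state and 23 to 66 reads at 10 min. The log2 fold changes were 0.44 ± 0.14 and 0.47 ± 0.22 (limma adjusted p = 0.219 and 0.308). Sf3b1 was lowest in each condition, at 5.72 and 4.78 against 5.88 and 5.63 in steady state, 4.94 and 5.75 against 6.79 and 5.94 at 5 min, and 6.36 and 6.33 against 7.24 and 7.67 at 10 min. Its genotypes overlapped in steady state and not in recovery, where the log2 fold changes were -0.25 ± 0.18 and -0.23 ± 0.09 (limma adjusted p = 0.745 and 0.258). Sf3b3 was at 24.8 and 22.1 against 25.5 and 24.8 in steady state, with overlap, and was the highest of its complex at 5 min, at 7.48 and 8.79 against 7.44 and 7.14.

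The PRPF genes had the lowest family median in steady state, a log2 fold change of -0.16. Of the 13 genes, 7 lay below WT without overlap (background 21.4%) and 2 above (background 32%). At 5 min 4 of 12 lay below (background 25%), and at 10 min 2 of 13 (background 21.8%). Prpf8, the core U5 protein at the catalytic centre, was at 5.57 and 6.03 RPKM against 6.71 and 6.30, without overlap. Prpf4b, a kinase of the spliceosome, was lower without overlap in all 3 conditions, at 3.89 and 3.48 against 4.15 and 4.11, 2.99 and 3.66 against 4.24 and 3.76, and 8.91 and 9.50 against 10.97 and 10.2. Its largest difference was a log2 fold change of -0.26 ± 0.18 at 5 min (limma adjusted p = 0.732). Prpf31, a tri-snRNP protein whose gene is mutated in retinitis pigmentosa, had the highest log2 fold change of the family in steady state, 0.20 ± 0.09 (limma adjusted p = 0.322), from 5.77 and 5.73 against 5.16 and 4.83 RPKM, without overlap. Prpf38b was at 13.8 and 10.4 against 13.4 and 13.8, with overlap. In recovery the PRPF genes with the highest log2 fold change were Prpf39 at 5 min, at 6.78 and 7.87 against 6.79 and 6.95, and Prpf40b at 10 min, at 0.866 and 0.719 against 0.798 and 0.549, both with overlap.

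Prpf18, which acts in the second catalytic step, was lower in the libraries labelled EloA null in all 3 conditions without overlap, and by more in recovery. Its RPKM was 2.31 and 2.21 in WT and 2.04 and 1.92 in the other genotype in steady state. At 5 min the values were 0.780 and 0.824 against 0.443 and 0.559, and at 10 min 2.51 and 2.38 against 1.72 and 1.64, from 140 to 277 and 913 to 1392 reads. The ratios of means were 0.877, 0.624 and 0.689, and the log2 fold changes -0.18 ± 0.08, -0.59 ± 0.21 and -0.51 ± 0.10 (limma adjusted p = 0.334, 0.509 and 0.135). In a limma fit of all 12 libraries, in which the conditions share 1 estimate of spread, Prpf18 was the only member past an adjusted p of 0.05, at 5 min (log2 fold change -0.59 ± 0.11, adjusted p = 0.0246) and at 10 min (-0.51 ± 0.11, adjusted p = 0.0465). This fit called 1.09%, 4.18% and 3.06% of 11973 genes in steady state, at 5 min and at 10 min.

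The Prpf18 gene spans chromosome 2 from 4622058 to 4652135 on the minus strand. Expressed genes on chromosome 2 had median log2 fold changes of 0.00, -0.09 and 0.03 in the 3 conditions (896, 721 and 831 genes). Within 1 Mb of Prpf18, 2 of 5, 2 of 3 and 2 of 3 expressed genes were lower in the libraries labelled EloA null.

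**Figure D3:**
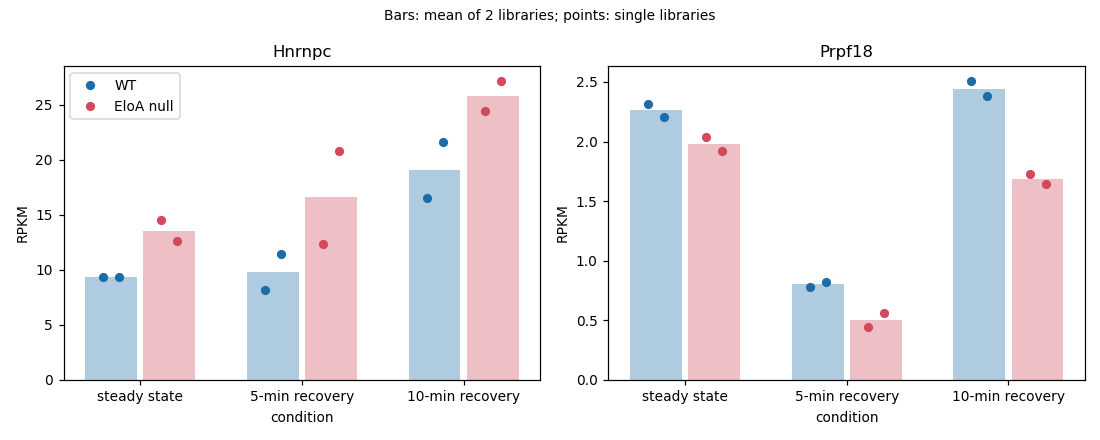
RPKM (vertical axis, from 0) of Hnrnpc and Prpf18 in single libraries (points) and as means of 2 libraries (bars), by condition (horizontal axis) and genotype label. The libraries labelled EloA null lie above WT for Hnrnpc and below WT for Prpf18 in all 3 conditions, and Prpf18 in WT falls from a mean of 2.26 in steady state to 0.802 at 5 min and is at 2.44 at 10 min.

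The difference between genotypes was also compared between conditions, in the fit of 12 libraries. No member passed an adjusted p of 0.05 for 5-min recovery against steady state (12 of 11973 genes, 0.1%) or for 10-min recovery against steady state (1 gene, 0.00835%). The smallest adjusted p among members was 0.678 and 1.00, and 1 and 0 members had an unadjusted p under 0.05 (background 6.51% and 1.64%). That member was Prpf18, whose log2 fold change was lower by 0.41 ± 0.15 (standard error) at 5 min than in steady state.

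The 3 lists of other splicing genes (118 genes of the spliceosome, of snRNP assembly and of splicing regulation) were counted in the same way. Of 116, 114 and 114 expressed genes, 3, 0 and 3 were past 1.5-fold as higher and 0, 1 and 0 as lower, and their median log2 fold changes were -0.04, -0.11 and -0.01. In the list of the spliceosome (57 expressed in each condition) the genes past the limit were Lsm7, higher in steady state at 1.48 and 2.08 RPKM against 1.04 and 1.23 and at 10 min at 4.19 and 3.32 against 2.62 and 2.36, and Eftud2, lower at 5 min at 1.54 and 1.65 against 2.64 and 2.34. In snRNP assembly it was Prmt5, the methyltransferase of Sm proteins, at 5.44 and 4.89 against 3.79 and 3.03 in steady state and at 6.57 and 5.40 against 4.32 and 3.01 at 10 min. Among the regulators they were Acin1 in steady state, at 5.66 and 5.89 against 3.97 and 3.70, and Sap18 at 10 min, at 31.99 and 30.8 against 20.3 and 18.3. Prmt5, Acin1 and Sap18 lie on chromosome 14, as Hnrnpc does.

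In steady state the genotype difference of the members moved with the GC content of their span. Over the 63 members Spearman's rho between GC content and log2 fold change was 0.50, and over 11312 genes it was 0.52. In the 24 members below 42% GC the median log2 fold change was -0.13, in the 19 between 42% and 46% it was -0.04, and in the 20 above 46% it was 0.02. All expressed genes in these classes had medians of -0.12, -0.02 and 0.17, so that members of low GC content lay near other genes of their class and those of high GC content below theirs. It moved with gene span as well, with a rho of -0.41 over the members in steady state and -0.45 at 10 min, against -0.29 and -0.36 over all genes. The points share libraries, and genes are not independent replicates, so no p is given.

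**Figure D4:**
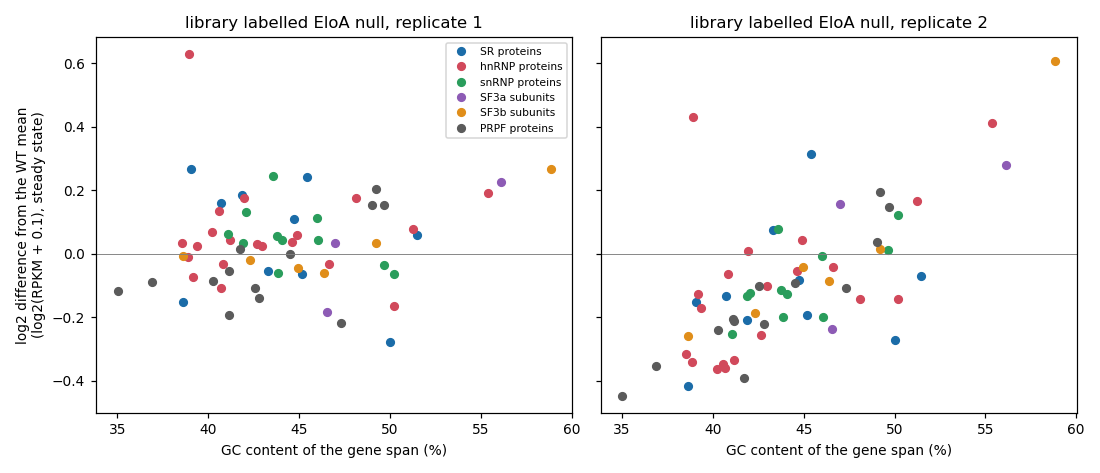
Difference of each steady-state library labelled EloA null from the mean of the WT libraries (vertical axis, log2(RPKM + 0.1)) against the GC content of the gene span (horizontal axis, %), for the 63 expressed members. Replicate 1 is nearly flat with Spearman's rho of 0.17 and replicate 2 rises with rho of 0.66. The red point near 39% GC that is high in both panels is Hnrnpc.

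This relation differed between the 2 libraries labelled EloA null. Taken alone against the WT mean, replicate 1 gave a rho of 0.17 over the members and a median log2 difference of 0.03, while replicate 2 gave 0.66 and -0.13. Over all genes their rho was 0.33 and 0.61. With gene span the members' rho was -0.44 for replicate 1 and -0.28 for replicate 2. The WT libraries differed from each other in the same measure by a rho of -0.34. Without replicate 1, whose labels conflict, the median log2 fold change of the members was -0.13 and Sf3b5 was past 1.5-fold, and without replicate 2 it was 0.03 and Hnrnpc was past it. At 10 min rho was 0.42 over the members, with 0.53 for replicate 1 and 0.11 for replicate 2, and at 5 min it was -0.01. The part of GC content and span in the differences of single members was not tested.

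Recovery was compared with steady state within each genotype. After the drug is removed polymerases enter a gene from its start, so the level over the whole gene depends on how many enter and how far they travel, which cannot be told apart in these values. Levels are given as the ratio of mean RPKM in recovery to mean RPKM in steady state. RPKM is relative to each library's reads, the scaling of the tables to one another is not given in the sources used here, and a ratio above 1 therefore means a larger share of the nascent RNA and not more RNA per cell. No test was made across tables. Medians and counts over all members are also given with each library divided by its median RPKM. That alternative moves the median ratio up at 5 min and down at 10 min. Ratios by length class, by family and for single genes are given as deposited only, and their level depends on the scaling.

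In WT cells the median ratio of the 63 members was 1.37 at 5 min and 2.07 at 10 min, against 0.632 and 1.03 for 10764 expressed genes. At 5 min both recovery libraries were above both steady-state libraries for 38 members (background 21.6%) and below them for 19 (background 63.8%). At 10 min they were above for 59 (background 44.1%) and below for 2 (background 40.7%), which were Prpf40b and Sf3b3. Hnrnpa0 and Hnrnpr overlapped at 10 min. With each library divided by its median RPKM the members' medians were 2.04 at 5 min and 1.95 at 10 min, against 0.943 and 0.964 for all genes, so that the order of the 2 times turned. The libraries then lay above steady state for 51 members (background 39.6%) and 57 (background 41.4%). They lay below it for 10 (background 45.2%) and 2 (background 44.3%).

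The libraries labelled EloA null gave medians of 1.31 and 2.08, against 0.572 and 1.05 for all genes. After division by the library medians these became 2.18 and 1.92, against 0.953 and 0.960, the order of the times turned here too, and 53 members (background 40.4%) and 56 (background 42.1%) lay above steady state. As deposited, their recovery libraries were above steady state without overlap for 34 members at 5 min (background 19.6%) and 57 at 10 min (background 46.1%), and below for 19 (background 67.4%) and 2 (background 40.8%). Without the steady-state library of conflicting labels, the median at 10 min was 2.37.

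**Figure D5:**
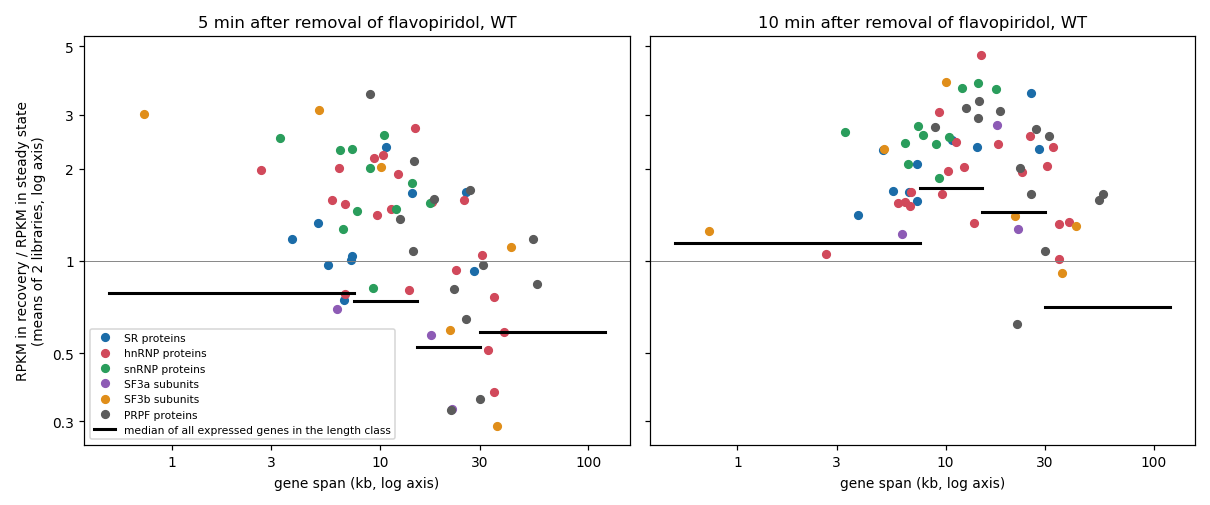
Ratio of mean RPKM in recovery to mean RPKM in steady state in WT (vertical axis, log scale) against gene span (horizontal axis, kb, log scale) for the 63 expressed members, coloured by family. Black bars are medians of all expressed genes in 4 length classes, which are 0.789, 0.742, 0.527 and 0.585 at 5 min and 1.14, 1.73, 1.44 and 0.706 at 10 min. Most members lie above the bar of their class in both panels.

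The members have a median span of 12.5 kb, shorter than the 19.7 kb of all expressed genes, and were therefore also set against genes of like length. Of genes up to 7.5 kb, the 18 members had a median ratio of 1.43 at 5 min and 1.68 at 10 min, against 0.789 and 1.14 for all 2758. Between 7.5 and 15 kb the 20 members were at 1.86 and 2.545, against 0.742 and 1.73 for 1752 genes. Between 15 and 30 kb the 14 members were at 0.933 and 2.36, against 0.527 and 1.44, and over 30 kb the 11 members were at 0.764 and 1.34, against 0.585 and 0.706. The members' median was above that of all genes in each of the 4 classes at both times. Within the members the 5-min ratio fell with span (Spearman's rho of -0.48 over 63 genes, which share libraries) and the 10-min ratio did not (-0.04), while over all genes rho was -0.03 and -0.30.

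Families differ in median span, which was 7.27 kb for SR, 12.97 kb for hnRNP, 8.98 kb for snRNP and 22.7 kb for PRPF genes. It was 17.6 kb for SF3a and 15.8 kb for SF3b genes, and its part in the family ratios was not tested. The snRNP protein genes had the highest family median at 5 min, 1.79 in WT, and with the PRPF genes the highest at 10 min, 2.56 each. Snrpd1 led them at 5 min with a ratio of 2.57, from 17.8 and 20.9 RPKM against 7.83 and 7.23, and Snrpa1 at 10 min with 3.81, from 20.9 and 18.6 against 5.59 and 4.76. Snrpa, the U1 protein, was the lowest at both times, with 0.818 and 1.87. The 7 genes of the Sm ring lay between 1.27 (Snrpf) and 2.57 (Snrpd1) at 5 min and between 2.07 (Snrpf) and 3.63 (Snrpd3) at 10 min. Snrpb was at 1.45 and 2.56. All 11 genes of the family were above steady state without overlap at 10 min, as were 59 of the 63 members and 44.1% of all genes.

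Among hnRNP genes the family medians were 1.51 and 1.81. Hnrnpul2 had the highest ratio of all members at 10 min, 4.70, with 27.3 and 30.7 RPKM against 6.10 and 6.26 in steady state. Hnrnpr, of 35.04 kb, was lowest in its family, with 0.373 at 5 min and 1.02 at 10 min, from 1.84 and 2.40 and then 5.17 and 6.38 RPKM against 5.45 and 5.89. Hnrnpa1 was at 1.54 and 1.51, Hnrnpa2b1 at 1.41 and 1.65, Hnrnpk at 1.93 and 2.03, Hnrnpu at 1.56 and 2.40, and Hnrnpc at 1.05 and 2.04.

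The SR protein genes had medians of 1.11 and 2.18. Srsf3 was the highest at 5 min with 2.34, at 61.5 and 77.3 RPKM, and had a ratio of 2.47 at 10 min, at 66.9 and 79.4. Srsf11 was highest at 10 min with 3.53, from 24.6 and 28.9 RPKM against 7.30 and 7.83. Srsf9 was lowest at 5 min, at 0.748, and Srsf2 lowest at 10 min, at 1.42. As deposited, Srsf1 and Srsf7 had ratios of 1.01 and 1.04 at 5 min and of 1.56 and 2.07 at 10 min.

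Genes of 1 complex differed widely in SF3b. Sf3b4, of 5.06 kb, was at 3.11 at 5 min, with 10.3 and 13.7 RPKM against 4.25 and 3.46, while Sf3b3, of 36.3 kb, was at 0.290, with 7.44 and 7.14 against 25.5 and 24.8. At 10 min Sf3b3 had reached 24.4 and 21.4 RPKM, a ratio of 0.911, the lowest of its complex, and Sf3b6, which contacts the branch point region, was highest at 3.82. Sf3b1, of 42.3 kb, was at 1.11 and 1.30 and so stood at the 80.6th percentile of genes over 30 kb at 5 min. In the values as deposited the SF3a genes were below steady state at 5 min, with 0.330 for Sf3a1, 0.700 for Sf3a2 and 0.572 for Sf3a3, and above it at 10 min, with 1.27, 1.23 and 2.77.

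PRPF genes ranged at 5 min from 3.50 for Prpf38b to 0.327 for Prpf40b. Prpf38b, of 8.93 kb, was at 45.3 and 50.1 RPKM at 5 min and 36.1 and 38.3 at 10 min, against 13.4 and 13.8 in steady state. Prpf40b was at 0.389 and 0.316, then 0.798 and 0.549, against 1.17 and 0.983, and was the member with the lowest ratio at 10 min, 0.625. Prpf38a led the family at 10 min with 3.31. Orc1, on the other strand over 25.1% of the Prpf38a span, was at 8.86 RPKM in steady-state WT, against 3.15 for Prpf38a. The part of Orc1 in the Prpf38a values was not tested. Prpf8 was at 0.811 and 2.01, Prpf4b at 0.969 and 2.56, and Prpf18 at 0.355 and 1.08 in WT, against 0.253 and 0.849 in the libraries labelled EloA null.

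For 9 of the 63 members the mean WT level was higher at 5 min than at 10 min (background 23.5%), and for 6 of these the libraries did not overlap (background 18.1%). They were Hnrnpa0, Hnrnpa1, Hnrnpa3, Hnrnpdl, Hnrnph2, Prpf38b, Sf3b4, Sf3b5 and Snrpd1. The ratio of 10 min to 5 min was lowest for the intronless genes, at 0.418 for Sf3b5 and 0.535 for Hnrnpa0. The libraries labelled EloA null gave the same count of 9 (background 20.2%), with 3 without overlap (background 16.5%). These counts depend on the scaling of the tables: with each library divided by its median RPKM they were 25 in WT (background 43.4%), 19 of them without overlap (background 33.1%), and 32 under the EloA null label (background 43.5%), 22 of them without overlap (background 34.5%).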

How the data were processed

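Bru-seq tables of 12 libraries (2 per genotype in each of 3 conditions) were analysed, with each sample grouped by its title. The 16 chromatin samples (ChIP-seq, CUT&RUN-seq) of the series were not used. Alignment to mm10 was done by the authors with bowtie2 2.3.4.3 (version per the labels). Unique reads were then, by the study's account, counted over whole RefSeq genes with featureCounts 1.6.1. The authors deposited RPKM made with edgeR in 1 table per condition. Their columns of means were not used. Rows with repeated names (4) were left out, and all 66 members matched the RefSeq annotation of GRCm38.

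Library sizes and reads were recovered from the RPKM steps, for description only, and the recovery and the tests were tried on simulated data. Within each table, limma 3.58.1 (R 4.3.3) with an intensity trend was fitted to log2(RPKM + 0.1) of all genes with a mean RPKM above 0.5 in either genotype, with Benjamini-Hochberg adjustment of its p-values over all of them. Differences between conditions used 1 fit of the 12 libraries. Alternatives were a pseudocount of 1, no limit on RPKM, centred libraries, removal of a trend with length, the replicate number as a block, the fit of 12 libraries and each library left out. Median recovery ratios over all members were also taken with each library divided by its median RPKM. Removal of a trend with GC content, and that division for counts of members, were added after the data were seen. Values per library are given for the highest member of each family in WT, for its largest and smallest genotype difference in each condition, for the highest and lowest 10-min recovery, for members past 1.5-fold or past the adjusted p, and for 15 members listed by name. Srsf9, Hnrnpf and the extremes of 5-min recovery (among them Sf3b4) were named after their values were seen. The values of 1 member enter the counts but are not reported here. The members and the lists were chosen with earlier results of these data known.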

Additional observations from a re-analysis of the deposited data

Results flagged for a closer look

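Srsf7, which encodes an SR protein, moved in opposite directions in the 2 recovery conditions, with every library of the EloA null label below WT at 5 min and above it at 10 min. Its RPKM was 17.0 and 19.3 against 22.0 and 22.7 in WT at 5 min, and 45.2 and 46.4 against 45.1 and 43.8 at 10 min. The log2 fold change at 5 min was lower than that at 10 min, the 2 differing by -0.34, and this difference was not tested. At 10 min the lower library of the EloA null label (45.157 RPKM) and the higher WT library (45.13 RPKM) were nearly equal.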

How the results depend on the processing

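Of the alternatives, 0 gave a member an adjusted p under 0.05 within a table, and 0 did so for a change of the genotype difference between conditions. The fit of all 12 libraries called 1 member, Prpf18, at 5 min and 1, Prpf18, at 10 min. The replicate number as a block (replicate block) called 0 members in each condition, and same-numbered libraries, which share only a number, had deviations correlated by 0.101, 0.119 and 0.103. Counts past 1.5-fold rested on few genes. In steady state 1 member (Hnrnpc) was past it as higher once the GC trend was removed, and 0 to 1 when a library was left out, with 1 without replicate 1 (Sf3b5) or without replicate 2 (Hnrnpc) of the EloA null label. At 5 min 2 were past it as higher without the limit on RPKM (Hnrnpc and Snrpn), and leaving out a library gave 0 to 2 as higher and 0 to 2 as lower. There Hnrnpc was no longer past it without WT replicate 1 or without replicate 2 of the EloA null label, Prpf18 without replicate 1 of that label, and Sf3b5 was past it as higher without replicate 1 and as lower without replicate 2. At 10 min 1 was past it as lower without the limit (Srsf12) and 1 with centred libraries (Prpf18), and leaving out a library gave 0 to 2 as higher (Hnrnpc and Sf3b5 without WT replicate 2, and Sf3b5 without replicate 1 of the EloA null label).

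The median log2 fold change of the members ranged from -0.13 to 0.033 in steady state, -0.20 to 0.076 at 5 min and -0.044 to 0.0083 at 10 min when a library was left out, and at 10 min it was -0.13 with centred libraries and 0.039 without the GC trend. Its sign thus changed in each condition. Of 396 alternative values for the extremes of the families, 389 kept their direction. The others were Sf3b1 in steady state (0.028) and Snrpf at 10 min (0.043) without the GC trend, and 4 genes when a library was left out, with ranges of -0.11 to 0.31 for Srsf5 and -0.018 to 0.19 for Prpf39 at 5 min, and -0.014 to 0.46 for Prpf40b and -0.43 to 0.026 for Srsf1 at 10 min. The cause was not tested.

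Median recovery ratios at 5 min and 10 min were 2.04 and 1.95 in WT and 2.18 and 1.92 under the EloA null label after each library was divided by its own median RPKM. That scaling was applied to counts after the data were seen. Under it the members higher at 5 min than at 10 min numbered 25 in WT (background 43.4%) and 32 under the EloA null label (background 43.5%). At 5 min 53 members lay above steady state under that label (background 40.4%). Below steady state at 5 min lay 10 in WT (background 45.2%) and 7 under that label (background 44.9%). Leaving out a library gave 1.31 to 1.39 and 2.06 to 2.12 in WT, and 1.12 to 1.47 and 2.002 to 2.37 under the EloA null label. Values from few reads, as for Sf3b5, are imprecise, and counting error was not separated from the spread between 2 libraries.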
